A study of Mus musculus with 6 samples.

Results

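The genes described here encode the machinery by which a killer T cell docks, primes and fuses its lytic granules: Rab27a, Unc13d, Stx11, Stxbp2, Lyst, Ap3b1, Vamp7, Vamp8, Sytl2 and Sytl3. The 10 genes were taken by symbol from 23284 genes in each count table. Of the members, 9 had counts in every library and passed the filter on low counts, together with 12951 genes in all. Vamp7 was listed at 0 counts in all 6 libraries, as were 21.6% of all genes in the tables. RNA was sequenced from flow-sorted lymph node cells of C3H/HeJ mice, an inbred laboratory strain. All cells were CD3+CD8+CD44+CXCR3+, the surface phenotype of antigen-experienced CD8 T cells, and were parted by NKG2D, an activating receptor shared with natural killer cells. There were 3 NKG2D+ and 3 NKG2D- libraries, sorted from 3 separate mice. The sources used here do not give the age, treatment or health of the mice.

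Lytic granules are lysosome-related organelles that store perforin and granzymes. After target contact they move along microtubules to the immune synapse, dock under the plasma membrane and fuse with it. Adaptor complex AP-3 and LYST act while the granule forms and matures. RAB27A on the granule binds MUNC13-4, the product of Unc13d, and the synaptotagmin-like proteins, which tether granules to the membrane. Syntaxin 11 on the target membrane, with its chaperone MUNC18-2 from Stxbp2, and a granule VAMP protein then form the fusion complex. Inherited loss of RAB27A, MUNC13-4, syntaxin 11, MUNC18-2 or LYST impairs killing by lymphocytes and can cause hemophagocytic lymphohistiocytosis.

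NKG2D+ cells held 2.99 times the RNA of Sytl3, which encodes a synaptotagmin-like RAB27 effector, and NKG2D- cells held 1.36 times the RNA of Lyst, the granule size and maturation gene. These were the only 2 members called at a Benjamini-Hochberg adjusted p under 0.05 when all 6 libraries were tested with edgeR, with group as the only term. Stx11 and Sytl2 had fitted NKG2D+ to NKG2D- ratios of 2.62 and 1.55 with adjusted p-values of 0.0513 and 0.0538, just outside that threshold. Unc13d, Stxbp2 and Ap3b1 had fitted ratios between 1.01 and 1.05. With 1 member called higher and 1 lower of 9 tested, the members stood beside 2.02% of all tested genes called, 1.65% higher and 0.363% lower. Both calls depended on the libraries and on the model, as given with each gene below. With the replicate number as a block, edgeR called no member (adjusted p = 0.0983 for Sytl3 and 0.0714 for Lyst). The block pairs libraries of the same number, taken as from 1 mouse, which the sample titles do not state.

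Reference promoter sequence is shown for Sytl3 and Lyst, the called members, and for Stx11 and Rab27a, which stood higher in every NKG2D+ library. Sytl2 and, by small amounts, Ap3b1 also stood higher in every one. Sytl2 had no entry, and the window of Ap3b1, which held none of the motifs below, is not shown. Each run covers the bases from 250 to 51 before the annotated start of the gene in RefSeq on assembly GRCm38.p6, written 5′ to 3′ in the direction of transcription. These are C57BL/6J reference letters and were not read from the C3H/HeJ samples. Capitals mark matches, on either strand, to 4 six-letter motifs chosen with the sequences in view: TGTGGT of RUNX factors, TCACAC of T-box factors, CACCTG of E proteins and ZEB factors, and GGAAGT of ETS factors. The windows of Stx11 and Lyst held none of them and stand without capitals.
Sytl3 (chr17:6658809-6659008, + strand): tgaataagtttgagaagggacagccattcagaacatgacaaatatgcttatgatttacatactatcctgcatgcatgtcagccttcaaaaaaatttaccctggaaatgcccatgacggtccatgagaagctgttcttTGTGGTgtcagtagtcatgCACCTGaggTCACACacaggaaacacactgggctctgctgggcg
Rab27a (chr9:73044560-73044759, + strand): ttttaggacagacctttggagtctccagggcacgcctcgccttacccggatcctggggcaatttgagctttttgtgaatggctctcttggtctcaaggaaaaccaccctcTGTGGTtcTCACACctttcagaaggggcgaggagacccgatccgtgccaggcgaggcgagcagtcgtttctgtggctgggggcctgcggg
Stx11 (chr10:12964310-12964509, - strand): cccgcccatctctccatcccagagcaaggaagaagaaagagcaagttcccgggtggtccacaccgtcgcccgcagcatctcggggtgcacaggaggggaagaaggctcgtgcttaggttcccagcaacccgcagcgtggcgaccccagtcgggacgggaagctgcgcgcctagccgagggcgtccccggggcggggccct
Lyst (chr13:13590159-13590358, + strand): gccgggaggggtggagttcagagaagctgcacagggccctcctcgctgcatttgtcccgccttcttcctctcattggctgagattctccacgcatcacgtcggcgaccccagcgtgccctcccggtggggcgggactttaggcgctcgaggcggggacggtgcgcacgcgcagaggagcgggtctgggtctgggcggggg

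The Sytl3 window held the RUNX letters TGTGGT at 113, the letters CACCTG at 94 and the T-box letters TCACAC at 85 bases before the start. The first Rab27a window held TGTGGT at 140 and TCACAC at 132 bases before the start, with no overlap between any of these matches. Of 32851 RefSeq windows of the same length and position, 11.56% held the RUNX letters, 10.15% the T-box letters, 14.43% the CACCTG letters and 14.62% the ETS letters on either strand. Of the 10 members, 7 had an entry in that table, with 8 starts in all. The second Rab27a start and the windows of Ap3b1 and Vamp8 held none of the motifs, and that of Stxbp2 held the T-box and CACCTG letters. A match describes the letters in this window and was not tested as a binding site.

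The libraries held 41168816 to 89184611 gene counts, and the NKG2D+ library was the deeper of each same-numbered pair. Klrk1, which encodes NKG2D, stood at 409, 312 and 342 CPM in NKG2D+ and at 34.5, 37.1 and 36.1 CPM in NKG2D- libraries 1, 2 and 3, so its RNA followed the sort. CPM, counts scaled to library size, were computed after TMM normalisation. The summed level of 6 CD3, CD8 and LCK genes found in the tables was 4098 to 5749 CPM in NKG2D+ and 4214 to 4556 CPM in NKG2D- libraries. Markers of other cells moved with the sort as well. The sum of 12 B-cell markers, all above 0, was 618, 393 and 440 CPM in libraries 1, 2 and 3 of NKG2D+ cells and 111, 285 and 240 CPM in those of NKG2D- cells, with all 12 higher on average in NKG2D+. The sum of 14 myeloid and dendritic markers, all above 0, was 104 to 157 against 86.1 to 99.5 CPM. Most of it was Cst3 (mean 88.7 against 67.1 CPM). Of the 14, 10 had a higher mean in NKG2D+, while Clec9a was lower in every NKG2D+ library (mean 0.119 against 0.347 CPM). The 5 markers of gamma-delta and NKT cells gave 78.4 to 119 against 39.6 to 43.0 CPM. Most of that sum was Cd163l1 (mean 79.7 against 36.6 CPM), followed by Blk (12.1 against 4.64 CPM). The 6 plasma cell markers gave 74.3 to 192 against 57.3 to 62.6 CPM. Xbp1, Prdm1 and Irf4, which activated T cells also express, made up nearly all of the plasma cell sum. Prdm1 was called higher in NKG2D+ by edgeR (log2 fold change 2.01, adjusted p = 0.0443), but not with the replicate block (adjusted p = 0.104). The other genes of the list, Sdc1, Igj and Tnfrsf17, had overlapping libraries. They averaged 0.467, 1.66 and 0.010 CPM in NKG2D+ against 0.280, 1.53 and 0.016 CPM in NKG2D- libraries. Sums of 6 CD4 T-cell markers overlapped between the populations, and 3 of the 6 had a higher mean in NKG2D+. Foxp3 was lower in every NKG2D+ library (mean 4.88 against 17.1 CPM). Cd40lg (19.4 against 1.79 CPM) and Zbtb7b (41.1 against 22.5 CPM) were higher in every one. The NKG2D+ mean of Cd40lg rested mostly on library 1, with 47.7, 3.57 and 6.90 CPM in libraries 1, 2 and 3. Cd4 itself overlapped (mean 9.95 against 10.4 CPM). DESeq2 called Foxp3, Cd40lg and Zbtb7b (adjusted p = 7.74e-06, 0.0180 and 0.00184). None of them passed edgeR (adjusted p = 0.0687, 0.124 and 0.0870). The sum of 6 NK-cell markers, nearly all of it Eomes, overlapped too, but 5 of the 6 had a higher mean in NKG2D+, and the lowly expressed Ncr1, Klrb1b, Gzmc and Tyrobp did not overlap, with the NKG2D+ libraries above. The sum of 8 stromal markers was 56.9 to 61.0 CPM in NKG2D+ and 70.3 to 72.6 CPM in NKG2D- libraries, most of it Pecam1 (mean 49.2 against 68.1 CPM). Of the 8, 5 had a higher mean in NKG2D+, and Pdgfrb and Col1a1 were called higher there (log2 fold changes 3.78 and 1.42, adjusted p = 0.0248 and 0.0339 by edgeR). The sum of 8 neutrophil and mast cell markers stayed under 2 CPM in every library, with Elane and Ms4a2 at 0. In bulk RNA, fewer cells of a type and less RNA per cell cannot be told apart.

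The granule formation genes came apart. Ap3b1 encodes the beta subunit of AP-3, which sorts membrane proteins to lysosome-related organelles. It stood at 108, 105 and 104 CPM in NKG2D+ libraries 1, 2 and 3 and at 99.8, 99.4 and 103 CPM in NKG2D- libraries 1, 2 and 3. Every NKG2D+ library lay above every NKG2D- library, yet by small amounts. Its log2 fold change was 0.07 (SE 0.06) with a 95% interval of -0.07 to 0.20 and an adjusted p of 0.577 by edgeR.

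Lyst encodes a very large BEACH-domain protein that limits lysosome and granule size. It stood at 218, 224 and 236 CPM in NKG2D+ libraries and at 319, 287 and 316 CPM in NKG2D- libraries 1, 2 and 3. The highest NKG2D+ library lay well below the lowest NKG2D- library, and the 3 libraries of each population lay close together. Lyst fell by 0.44 on the log2 scale in NKG2D+ cells (SE 0.07, 95% interval of the change -0.61 to -0.28, adjusted p = 0.0358 by edgeR), and all 3 pairs went the same way. With the replicate number as a block, the log2 fold change was again -0.44 and the adjusted p was 0.0714. Leaving out 1 library moved the log2 fold change between -0.49 and -0.42. Leaving out NKG2D+ library 3 ended the call (adjusted p = 0.113), as did leaving out NKG2D- library 1, 2 or 3 (adjusted p = 0.170, 0.112 and 0.208) or both libraries of mouse 3 (adjusted p = 0.563).

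**Figure D1:**
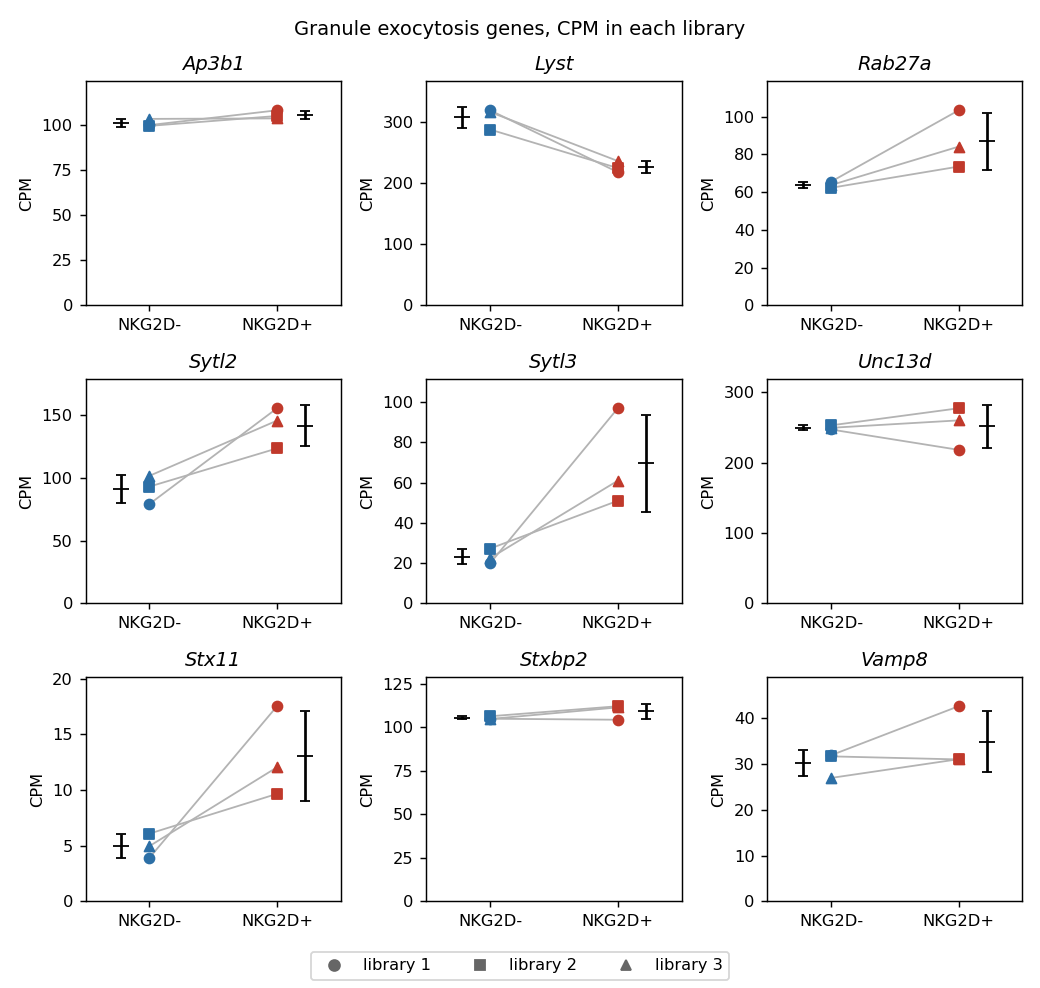
Each panel plots CPM (linear axis from 0) of 1 granule exocytosis gene in the 3 NKG2D- and 3 NKG2D+ libraries, with a gray line joining same-numbered libraries and black bars for mean ± SD (n = 3). Sytl3, Stx11, Sytl2, Rab27a and, by little, Ap3b1 lie higher in every NKG2D+ library, Lyst lies lower in every one, and Unc13d, Stxbp2 and Vamp8 overlap.

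Of the docking genes, Rab27a encodes the small GTPase that marks mature granules for release. It stood at 103, 73.6 and 84.1 CPM in NKG2D+ and at 65.5, 62.3 and 63.7 CPM in NKG2D- libraries 1, 2 and 3. The groups did not overlap, and the NKG2D+ libraries were spread far more widely than the NKG2D- libraries (SD 15.1 against 1.62 CPM). Rab27a was not called: the log2 fold change was 0.45 (SE 0.12, 95% interval 0.16 to 0.74) with an adjusted p of 0.111 by edgeR. It was 0.31 without NKG2D+ library 1, and 0.55 without NKG2D+ library 2, where it passed with an adjusted p of 0.0214. Exons of Rab27a overlap a processed pseudogene, Gm27186, in GENCODE release M21, so its level is uncertain.

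Sytl2 encodes SLP2, which links RAB27A on granules to phospholipids of the plasma membrane. Its level was 155, 123 and 145 CPM in NKG2D+ and 78.9, 92.8 and 101 CPM in NKG2D- libraries 1, 2 and 3. The lowest NKG2D+ library lay above the highest NKG2D- library. The log2 fold change was 0.63 (SE 0.12, 95% interval 0.35 to 0.92) and the adjusted p 0.0538 by edgeR, so Sytl2 was not called. It passed with an adjusted p of 0.0427 when NKG2D+ library 1 was left out, 0.0127 when NKG2D+ library 2 was left out and 0.0381 when genes with low counts were kept.

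Sytl3 encodes SLP3, another RAB27 effector of the same family. It stood at 96.9, 51.0 and 61.0 CPM in NKG2D+ and at 19.9, 27.3 and 22.5 CPM in NKG2D- libraries 1, 2 and 3. The NKG2D+ libraries all lay above the NKG2D- ones, and NKG2D+ library 1 stood apart at the top. Sytl3 rose by 1.58 on the log2 scale (SE 0.25, 95% interval 0.98 to 2.18, adjusted p = 0.0364 by edgeR), with all 3 pairs in 1 direction. The blocked adjusted p was 0.0983, and the unblocked one was 0.0555 when genes with low counts were kept. Without NKG2D+ library 1 the log2 fold change was 1.27 and the call held, while leaving out NKG2D+ library 3 ended it (adjusted p = 0.109), as did leaving out NKG2D- library 1, 2 or 3 (adjusted p = 0.181, 0.127 and 0.201) or both libraries of mouse 3 (adjusted p = 0.555). Exons of Sytl3 overlap those of Ezr, the ezrin gene, on the other strand in GENCODE release M21, and the strand setting of the counting is not given. Ezr went the other way, at 412, 458 and 445 CPM in NKG2D+ against 462, 499 and 538 CPM in NKG2D- libraries, and did not pass (log2 fold change -0.19, adjusted p = 0.254).

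The Sytl3 and Stx11 levels were ordered across libraries as the B-cell marker sums were. In each population library 1, 2 and 3 took the same places for all 3 measures, with library 1 highest in NKG2D+ and lowest in NKG2D-. Klrk1, the gene of the sort marker, and the sum of myeloid and dendritic markers took these places as well, so the order is not particular to B-cell markers. The other tested members did not take these places in both populations. This order was looked at after the values were seen, and the share of all tested genes that have it was not computed. The part of B cells or other marker-bearing cells in these differences was not tested.

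Unc13d encodes MUNC13-4, the priming factor that RAB27A recruits. It stood at 218, 277 and 260 CPM in NKG2D+ and at 247, 253 and 249 CPM in NKG2D- libraries 1, 2 and 3. The NKG2D+ libraries spread to both sides of the NKG2D- libraries. Between the groups the log2 fold change was 0.01 (SE 0.10), and the 95% interval from -0.21 to 0.24 limits any difference to a fold of 0.863 to 1.18.

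Among the fusion genes, Stx11 encodes syntaxin 11, a SNARE of the target membrane. It had 1153, 865 and 930 counts in NKG2D+ and 155, 360 and 318 counts in NKG2D- libraries, or 17.5, 9.66 and 12.0 against 3.90, 6.09 and 4.96 CPM. The groups did not overlap, and the same-numbered pairs ranged widely, with log2 ratios of 2.17, 0.67 and 1.28. The log2 fold change was 1.39 (SE 0.26, 95% interval 0.77 to 2.00) and the adjusted p 0.0513 by edgeR, so Stx11 was not called. When NKG2D+ library 1 was left out it passed with an adjusted p of 0.0272 and a log2 fold change of 1.12. It also passed when NKG2D+ library 2 was left out (adjusted p = 0.0116) and when genes with low counts were kept (adjusted p = 0.0381), and the blocked adjusted p was 0.122.

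Stxbp2 encodes MUNC18-2, the chaperone and fusion partner of syntaxin 11. It stood at 104, 112 and 111 CPM in NKG2D+ and at 105, 106 and 105 CPM in NKG2D- libraries 1, 2 and 3. The groups overlapped, and the log2 fold change was 0.05 (SE 0.06, 95% interval -0.09 to 0.20, adjusted p = 0.669 by edgeR). The Stx11 to Stxbp2 ratio of CPM was 0.168, 0.0862 and 0.108 in NKG2D+ libraries, compared with 0.0372, 0.0573 and 0.0474 in the NKG2D- libraries, higher in every NKG2D+ library. That difference of ratios was not tested.

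Vamp8 encodes an endosomal and granule SNARE. It stood at 42.6, 31.0 and 31.1 CPM in NKG2D+ and at 31.9, 31.7 and 27.0 CPM in NKG2D- libraries 1, 2 and 3. NKG2D+ library 1 alone lay above the NKG2D- range. Vamp8 had a log2 fold change of 0.21 (SE 0.15, 95% interval -0.13 to 0.55), and it was 0.04 without NKG2D+ library 1. Vamp7, a related granule SNARE, had no count. The limit that 0 allows, 3 counts per library, was 0.0335 to 0.0756 CPM, and it covers counting error of reads placed in 1 gene only. Reads aligned to several places, 19.71% to 26.19% of all counted reads, were set aside by the authors and are in no gene's count.

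**Figure D2:**
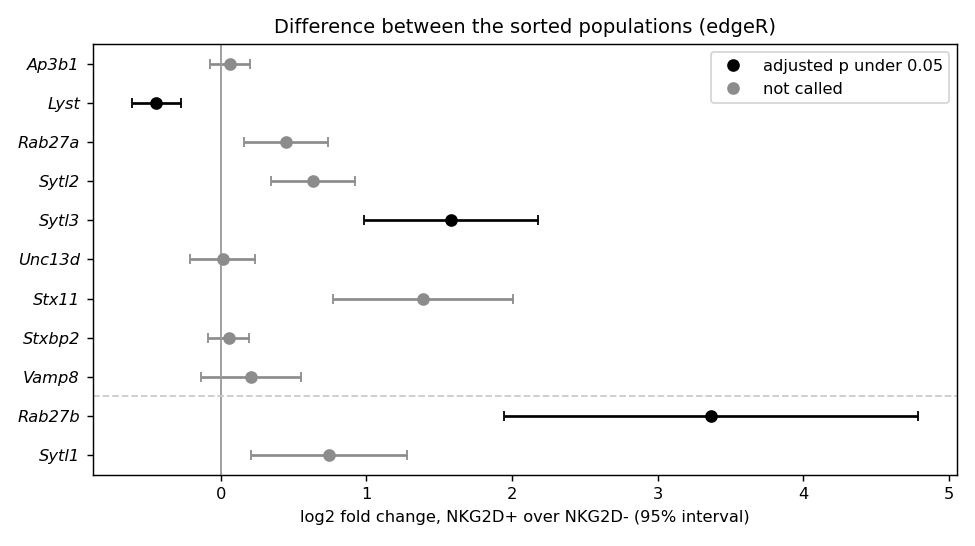
Points are log2 fold changes of NKG2D+ over NKG2D- from edgeR with 95% intervals, in black where the adjusted p was under 0.05, for 9 granule exocytosis genes and, below the dashed line, Rab27b and Sytl1. Sytl3 lies at 1.58, Stx11 at 1.39 and Lyst at -0.44, and the intervals of Unc13d, Stxbp2, Ap3b1 and Vamp8 hold 0.

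The members were chosen with earlier results of these data known, so the shares of all tested genes given here support no test of the members. In all, 5 of the 9 tested members stood higher in every NKG2D+ library and 1 stood lower in every one, where 15.1% and 14.1% of all tested genes did. At an unadjusted p under 0.05 there were 5 members of 9, against 21.1% of all tested genes. The median log2 fold change of the members was 0.21, and that of all tested genes was -0.01. Of the 9 tested members, 4 lay within 0.25 of 0 on the log2 scale, against 64.6% of all tested genes. DESeq2 called 5 members (Rab27a, Stx11, Lyst, Sytl2 and Sytl3), against 10.5% of the genes it tested. Limma-voom called none of them, with adjusted p-values of 0.0596 for Lyst and 0.0683 for Sytl3 and 0.641% of all tested genes called. The fit with the replicate block called none either, against 0.525% of all tested genes. In both, the log2 fold changes of Sytl3 and Lyst kept their signs.

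**Figure D3:**
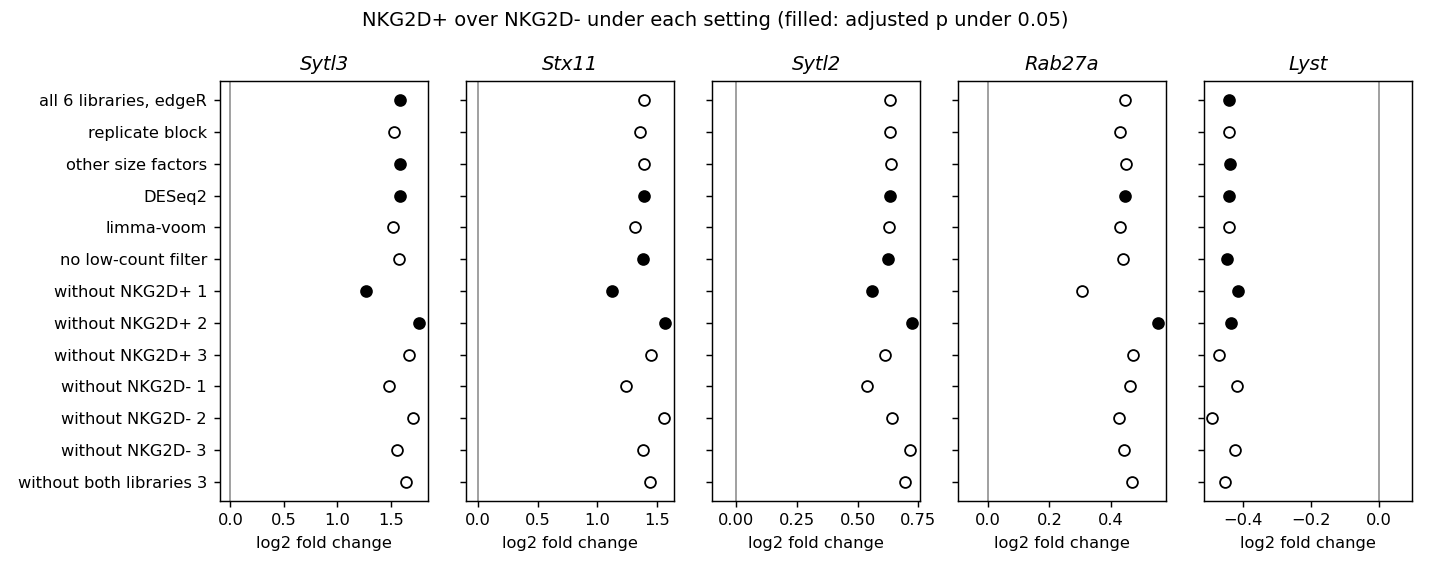
Each column plots the log2 fold change of 1 gene (horizontal axis, scaled per gene) under each setting (rows), filled where the adjusted p was under 0.05. Sytl3, Stx11, Sytl2 and Rab27a lie right of 0 and Lyst left of 0 under all 13 settings shown, while the filled points vary between settings.

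Levels of different genes were compared per kilobase of annotated exon, as mean CPM per kb ± SD over 3 libraries. In NKG2D+ cells Unc13d was the highest at 62.0 ± 7.47, followed by Stxbp2 at 37.6 ± 1.48, Sytl2 at 36.8 ± 4.26, Rab27a at 27.5 ± 4.77, Ap3b1 at 26.2 ± 0.571, Sytl3 at 25.8 ± 8.96, Lyst at 17.1 ± 0.70, Vamp8 at 15.1 ± 2.90 and Stx11 at 3.13 ± 0.968 CPM per kb. Library values overlapped between each of these neighbors from Stxbp2 to Sytl3 and between Lyst and Vamp8. Unc13d and Stx11 stood apart from their neighbors at the top and the bottom.

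In NKG2D- cells the level order per kb was Unc13d at 61.5 ± 0.722, Stxbp2 at 36.2 ± 0.295, Ap3b1 at 25.1 ± 0.529, Sytl2 at 23.7 ± 2.95, Lyst at 23.3 ± 1.32, Rab27a at 20.2 ± 0.511, Vamp8 at 13.1 ± 1.21, Sytl3 at 8.62 ± 1.38 and Stx11 at 1.19 ± 0.261 CPM per kb. Here only Ap3b1, Sytl2 and Lyst overlapped with their neighbors. Both ends of the order were the same in the 2 populations, and Sytl3 stood at place 6 in NKG2D+ and 8 in NKG2D- cells. With the length of the longest coding transcript in place of all exons, Sytl3 stood at place 4 in NKG2D+ cells and the NKG2D- order was unchanged.

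The close relatives of the members gave the family context. Rab27b, the second RAB27 gene, rose in NKG2D+ cells from a low level. It had 43, 203 and 181 counts in NKG2D+ and 4, 15 and 9 counts in NKG2D- libraries 1, 2 and 3, or 0.654, 2.27 and 2.34 against 0.101, 0.254 and 0.140 CPM. This was a log2 fold change of 3.37 (SE 0.60, adjusted p = 0.0456 by edgeR), with 2.99 to 3.81 over the alternatives and a blocked adjusted p of 0.0518. Leaving out NKG2D+ library 3 ended this call (adjusted p = 0.149), as did leaving out NKG2D- library 1, 2 or 3 (adjusted p = 0.220, 0.142 and 0.232). Per kilobase, Rab27b made up 0.902% ± 0.554 of RAB27 RNA in NKG2D+ and 0.109% ± 0.0551 in NKG2D- cells (SD, n = 3), so Rab27a was the main RAB27 transcript in both.

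Sytl1, which encodes SLP1, stood at 102, 58.7 and 56.8 CPM in NKG2D+ and at 44.2, 44.2 and 41.5 CPM in NKG2D- libraries. Its groups did not overlap, the log2 fold change was 0.74 (SE 0.22) and the adjusted p 0.133 by edgeR, with a log2 fold change of 0.42 and an adjusted p of 0.0225 without NKG2D+ library 1. Per kilobase, Sytl3 made up 28.0%, 23.3% and 25.3% of the summed Sytl1, Sytl2 and Sytl3 RNA in NKG2D+ libraries and 14.6%, 17.7% and 14.9% in NKG2D- libraries 1, 2 and 3. The share of Sytl3 was higher in every NKG2D+ library, and shares of Sytl1 and Sytl2 overlapped between the populations. The other family members Sytl4 and Sytl5 had at most 12 counts in a library.

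**Figure D4:**
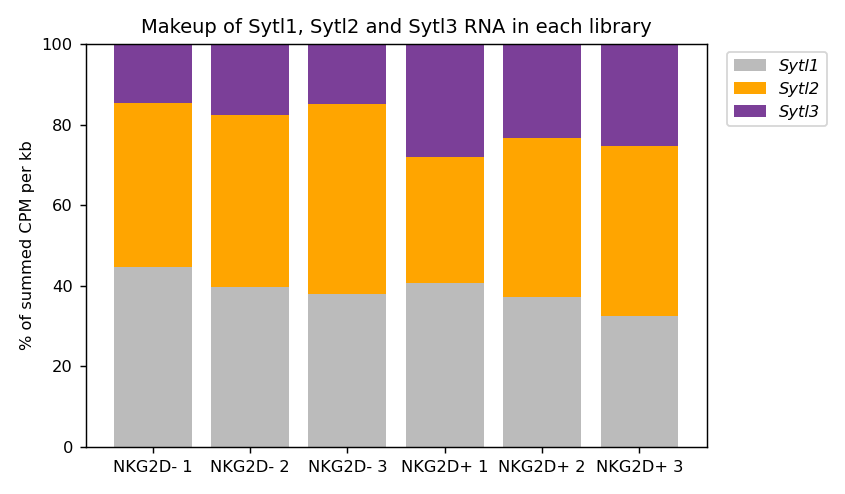
Stacked bars give the percent of summed CPM per kb held by Sytl1, Sytl2 and Sytl3 in each library. The Sytl3 part is 14.6% to 17.7% in the NKG2D- libraries and 23.3% to 28.0% in the NKG2D+ libraries.

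Unc13a, the neuronal MUNC13 gene, was low at 0.821, 1.35 and 1.96 CPM in NKG2D+ and 3.38, 2.69 and 3.37 CPM in NKG2D- libraries (log2 fold change -1.19, adjusted p = 0.110 by edgeR), and Unc13b stayed under 1 CPM. Stxbp3a, a relative of Stxbp2, had 46.4 ± 5.22 and 47.6 ± 4.93 CPM (SD, n = 3). Nbeal2, a BEACH-domain relative of Lyst needed for platelet granules, stood at 892 ± 157 against 687 ± 68.2 CPM with overlapping libraries (SD, n = 3). Its adjusted p by edgeR was 0.203, and 0.0283 without NKG2D+ library 1. Lrba, another relative, stood at 94.4 ± 4.58 against 93.1 ± 6.26 CPM. The SNARE genes Vamp2, Vamp3 and Vamp4 had overlapping libraries, with log2 fold changes of 0.16, 0.15 and 0.18 and adjusted p-values of 0.489, 0.341 and 0.352. Ap3b2 and Unc13c were at 0 to 3 counts in every library.

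The 6 lists of other genes of granule formation, transport and fusion held 112 tested genes, of which 3 rose in NKG2D+ cells, 0 fell and 109 did not pass. They had a median log2 fold change of 0.05, with 86 within 0.25 of 0. Of 23 SNARE proteins and their regulators, none passed edgeR, 3 had an unadjusted p under 0.05, DESeq2 called 1 and limma-voom 0. Of 15 tested RAB GTPases, RAB effectors and calcium sensors, Rab27b was called higher by edgeR on all 6 libraries. Among the 15, 5 had an unadjusted p under 0.05, 3 of them higher and 2 lower. DESeq2 called 4, Rab27b, Sytl1 and Rab8b as higher and Rabggtb as lower, and limma-voom called 0. Rabggta and Rabggtb, named here after their values were seen, were lower in every NKG2D+ library (log2 fold changes -0.31 and -0.26). Of 18 tethers and priming relatives, including the exocyst and HOPS subunits, none passed, 1 had an unadjusted p under 0.05, DESeq2 called 1 and limma-voom 0, with Unc13a at the smallest p.

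Of 22 tested genes of lysosome-related organelle formation, none passed edgeR, 2 had an unadjusted p under 0.05, DESeq2 called 1 and limma-voom 0. Hps6, a subunit of the BLOC complexes lost in Hermansky-Pudlak syndrome, had the smallest p, at 22.9, 20.2 and 20.0 CPM in NKG2D+ against 16.5, 17.2 and 16.4 CPM in NKG2D- libraries (log2 fold change 0.33, adjusted p = 0.111). Of 21 genes of granule transport and the cortical cytoskeleton, none passed, 4 had an unadjusted p under 0.05, DESeq2 called 3 and limma-voom 0. Arl8a, a GTPase that couples lysosomes to kinesin, led them at 54.3, 35.8 and 41.6 CPM against 29.9, 27.6 and 26.5 CPM (log2 fold change 0.65, adjusted p = 0.0841), and it passed when NKG2D+ library 1 or 2 was left out (adjusted p = 0.0439 and 0.0152). Of 13 granule membrane and matrix genes, 2 rose, the granule proteases Gzma and Gzmb with log2 fold changes of 5.69 and 4.30 (adjusted p = 0.022 and 0.0311 by edgeR). Both were also called with the replicate block (adjusted p = 0.00159 and 0.0209 by edgeR), and neither when genes with low counts were kept (adjusted p = 0.0680 and 0.0852). Gzma was not called without NKG2D+ library 3 or any 1 of the NKG2D- libraries (adjusted p = 0.0771 to 0.118), nor Gzmb without NKG2D+ library 1 or 3 or any 1 of the NKG2D- libraries (adjusted p = 0.108 to 0.180). In this list 5 genes had an unadjusted p under 0.05, all higher, DESeq2 called 4 and limma-voom 0. DESeq2 also called Ctsd and Nkg7 (adjusted p = 0.00531 and 0.0233), whose NKG2D+ libraries all lay above the NKG2D- ones and which did not pass edgeR (adjusted p = 0.0987 and 0.113). Prf1, which encodes perforin and is named here after its values were seen, as are Ctsd and Nkg7, stood at 204, 235 and 222 CPM in NKG2D+ and 235, 178 and 198 CPM in NKG2D- libraries 1, 2 and 3. Its groups overlapped (log2 fold change 0.11, adjusted p = 0.620 by edgeR).

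**Figure D5:**
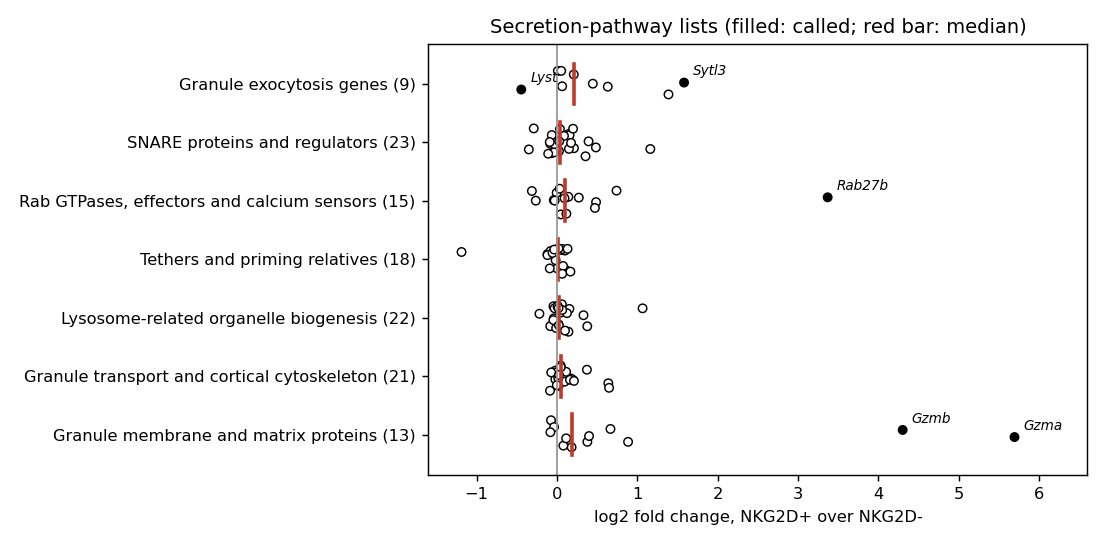
Each point is a tested gene, placed by its log2 fold change of NKG2D+ over NKG2D- in the row of its list, with the number tested in brackets, filled where called and with a red bar at the list median. Sytl3, Lyst, Rab27b, Gzma and Gzmb are filled, and the list medians lie between 0.01 and 0.21.

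The member with the smallest p was Lyst. The tested genes whose mean-centred log2 CPM lay nearest to it over the 6 libraries were Stambpl1, a deubiquitinase gene, Tmem14a and 1190007I07Rik, at root mean square differences of 0.0263, 0.0398 and 0.0407. Their log2 fold changes were -0.42, -0.41 and -0.42, and Stambpl1 passed with an adjusted p of 0.0443 by edgeR but not with the replicate block (adjusted p = 0.0695). They were picked for this likeness, which supports no test.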

How the data were processed

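The authors deposited read counts per gene symbol for each library, without normalisation. The mm9 genome, CASAVA 1.8.2 and TopHat2 2.0.4 are named per the submitters' processing notes. The sources used here name no counter, annotation or strand setting. Each file ends with 5 summary counts that name no gene, which entered neither library sizes nor tests. Of all counted reads, 14.01% to 15.87% lay outside genes and 0.715% to 0.836% were ambiguous.

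Counts were tested in R 4.3.3 with edgeR 4.0.16 (quasi-likelihood F-test, TMM, robust fits, group as the only term), after filterByExpr at its default minimum count (10) and total (15). Benjamini-Hochberg adjustment ran over 12951 genes, with a threshold of 0.05. Intervals of log2 fold changes use the standard error and the total degrees of freedom of each gene. DESeq2 1.42.0, limma-voom (limma 3.58.1), other size factors, no filter, a replicate block and left-out libraries were alternatives. Libraries with 1 number were paired as from 1 mouse, which is inferred: the series names 3 mice, and the titles give numbers only. Deviations from group means correlated across genes with r = 0.21, 0.16 and 0.28 within same-numbered pairs. Other pairs of an NKG2D+ and an NKG2D- library had r from -0.17 to 0.02. P-values measure the spread between these libraries. No library was a copy of another, with a chi-square per degree of freedom of 40.7 to 235 within groups.

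Lengths and overlaps come from GENCODE release M21 on GRCm38, another build than the counts, and promoters from RefSeq. The members and lists were chosen with earlier results of these data known. All members are named. Of each pathway list, up to 4 called genes are named by smallest p, or else the gene with the smallest p, besides relatives of the members (1 gene taken by this rule is left unreported) and the 3 genes most like the member with the smallest p.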

Additional observations from a re-analysis of the deposited data

How the results depend on the processing

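On all 6 libraries 261 of all genes, 2 members and 3 other secretion-pathway genes were called. DESeq2 called 1443, 5 and 14, and limma-voom 83, 0 and 0. With the replicate block the counts were 68, 0 and 2, and without the filter on low counts 234, 3 and 1. With both libraries numbered 3 left out, which leaves 2 per group, edgeR called 0 of all genes, 0 members and 0 other pathway genes. At an unadjusted p under 0.05 there were 971 genes. Libraries numbered 1 or 2 were not left out as a pair. Leaving out 1 library gave 8 to 1312 of all genes (1312 without NKG2D+ library 2, 8 without NKG2D- library 3), 0 to 5 members and 0 to 11 other pathway genes. The count of members was 4 without NKG2D+ library 1, 5 without NKG2D+ library 2 and 0 without any other single library. The cause was not tested. The log2 fold change of Unc13d was 0.01 on all libraries and ranged from -0.0627 to 0.106 over single libraries left out. It was -0.0627 without NKG2D+ library 2, -0.00979 without NKG2D+ library 3 and -0.0135 without both libraries numbered 3. The other 8 tested members kept their direction under all 12 alternatives. Sytl3 lost its call in 8 of the 12 alternatives and Lyst in 7, with adjusted p-values of up to 0.555 and 0.563 without both libraries numbered 3. Stx11 and Sytl2 gained a call in 4 each and Rab27a in 2. Rab27b lost its call in 7, Gzma in 7 and Gzmb in 8. Only 2 samples remain in a group when 1 of its libraries is left out.

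The length of the longest coding transcript, chosen after seeing the data, gave a Sytl3 share of 27.6% against 17.2% in place of 25.5% against 15.8%. Rab27b rested on as few as 4 counts in a library, so its fold is less precise than those of the members.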
